A study of Saccharomyces cerevisiae with 4 samples.

Results

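The cell integrity MAP kinase module of Saccharomyces cerevisiae was followed through the transcript ratios of 10 genes: the kinase genes BCK1, MKK1, MKK2, SLT2 and KDX1, the transcription factor genes RLM1, SWI4 and SWI6, and the phosphatase genes MSG5 and PTP2. They were chosen by name, and each had 2 spots on a dedicated array of cell wall genes that carries 353 named genes in all. The cells were of the laboratory strain BY4741 with a deletion of HOG1, which encodes the MAP kinase at the end of the high osmolarity pathway. A culture growing in rich medium at 24 °C was split. One part received Congo Red at 30 µg/ml, the other was left untreated, and RNA was taken after 4 h. Congo Red is a dye known to bind wall chitin and glucan, which upsets the assembly of the wall. Both RNAs therefore carried the deletion, and no strain with HOG1 was analysed here.

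Each of 4 arrays compared Congo Red RNA with untreated RNA, so that every value below is a log2 ratio of Congo Red over untreated and not a transcript level. Arrays 1 and 3 carried the Congo Red RNA in channel 2, whereas arrays 2 and 4 carried it in channel 1. The labels do not say which RNA is the numerator. It was taken to be the Congo Red RNA, and if it were the other, every sign below would turn round. Signs were left as deposited, on the assumption that the depositors had already turned all arrays the same way. With arrays 2 and 4 turned, 0 genes passed in limma, and 33 had an unadjusted p under 0.05. Nothing in the labels says whether the arrays came from separate cultures, so the p-values reflect only how far these arrays scatter, which may be technical. Their small number limits the precision. HOG1 itself, deleted in both RNAs, ranged from -1.73 to 1.43 over the arrays. ACT1, the actin gene, averaged 0.06 ± 0.13 (SD, n = 4), and neither passed the test. The sources used here do not place the HOG1 probe relative to the deleted stretch, so its ratios check nothing.

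The cell integrity pathway is the yeast route from stress at the cell surface to the genes that build the wall. Sensors in the plasma membrane act through the GTPase Rho1 on protein kinase C, which turns on a cascade: the MAP kinase kinase kinase Bck1, the redundant MAP kinase kinases Mkk1 and Mkk2, and the MAP kinase Slt2, also called Mpk1. Slt2 acts on the transcription factor Rlm1 and on Swi4 with its partner Swi6, and the phosphatases Msg5 and Ptp2 switch the kinase off. Kdx1, also called Mlp1, is a relative of Slt2 regarded as a pseudokinase. The pathway is regulated mainly by phosphorylation, which an array of transcripts does not measure.

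After Congo Red, 4 of the 9 module genes that could be tested were higher than in untreated cells: SLT2 3.01-fold, RLM1 2.52-fold, MSG5 1.78-fold and SWI4 1.43-fold. Of the 9, 0 were lower in this main fit, also at an unadjusted p under 0.05. Each of the 4 passed at an adjusted p under 0.05 in limma, fitted over 348 genes with values on at least 3 arrays, of which 17.0% were higher and 3.74% lower by the same rule. The number of all tested genes lower, 13, depended on the setting: it was 23 with centring, 24 with scaling, 34 with channel order in the model and 2 to 6 with an array left out. Among module genes, MKK1 was lower at an unadjusted limma p of 0.0178 with channel order in the model. With centring, and with scaling, 5 module genes had an unadjusted limma p under 0.05. The smallest adjusted p after the 4 was there that of SWI6 (0.107, at -0.25 and -0.26). The members were named with earlier results of these data known, so a larger share than over the whole chip is a description and no evidence about the module. The same 4 were above 0 on every array, as were 27.3% of tested genes. They also passed with channel order in the model, where 25.0% of genes were higher. The other 5 tested genes, BCK1, MKK1, MKK2, SWI6 and PTP2, did not pass. The tenth gene, KDX1, had the highest ratio of any named gene on both arrays that measured it, and no value on the other 2.

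**Figure D1:**
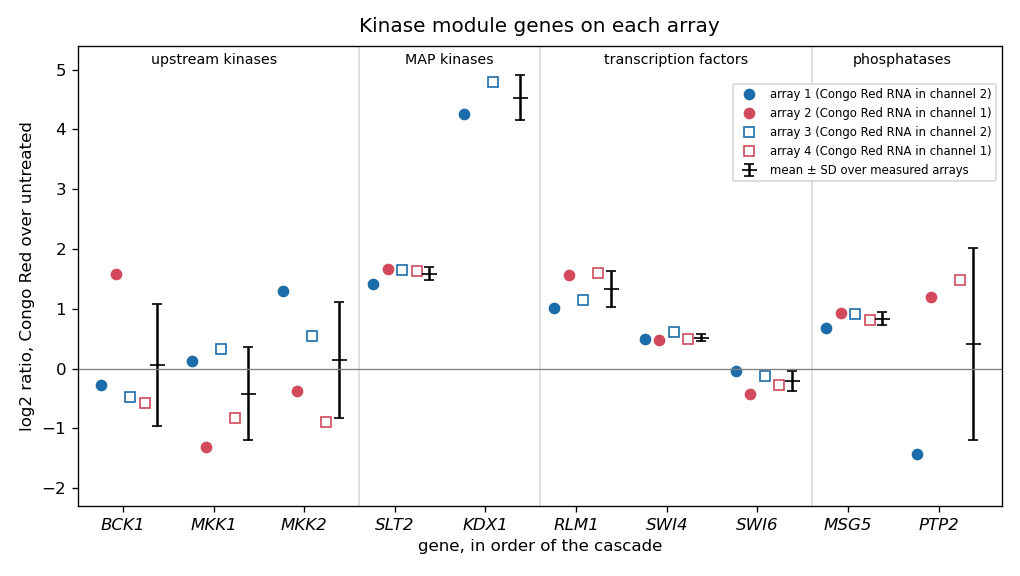
Log2 ratio (Congo Red over untreated, vertical axis) of the 10 module genes, ordered by their step in the cascade, with a symbol for each array and the mean ± SD over the measured arrays in black. SLT2, RLM1, SWI4 and MSG5 lie above 0 on all 4 arrays, KDX1 has symbols for arrays 1 and 3 alone, and MKK1 and MKK2 lie above 0 in one channel order and below it in the other.

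SLT2 (YHR030C), the gene of the MAP kinase, gave 1.42, 1.66, 1.65 and 1.64 as log2 ratios on arrays 1 to 4. All 4 values were far above 0, with array 1 a little below the other 3. The mean was 1.59 ± 0.12 (SD, n = 4), with a 95% confidence interval of 1.31 to 1.87 and a limma adjusted p of 0.00148. Its mean was the 12th highest of the 348 tested genes. The 2 spots differed little: their SD averaged 0.04, where the median tested gene had 0.06. The ratio did not follow the channel, with a channel order coefficient of -0.06 (95% interval -0.33 to 0.21).

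KDX1 (YKL161C) had log2 ratios of 4.26 on array 1 and 4.79 on array 3. The spots gave 4.31 and 4.21 on array 1, and 4.69 and 4.90 on array 3. No spot had a value on array 2 or array 4. The mean was 4.53 ± 0.38 (SD, n = 2), or 23.1-fold, and on each array KDX1 ranked first among 346 genes. The next highest gene had 4.15 on array 1 and 3.28 on array 3. SLT2 minus KDX1, the difference between the relatives, was -2.84 on array 1 and -3.15 on array 3.

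Both arrays that measured KDX1 had the Congo Red RNA in channel 2, so for this gene the treatment and the channel cannot be told apart. It was the only named gene with values on arrays 1 and 3 and none on arrays 2 and 4, and 1 gene showed the opposite pattern. In all, 12 genes had a mean log2 ratio of at least 2 over arrays 1 and 3, and 11 of them also had values on arrays 2 and 4. Of these 11, 4 were again at 2 or more there, 3 lay between 1 and 2, and 4 were below 1. The methyltransferase gene CRG1 kept its ratio, at 3.24 over arrays 2 and 4 and 3.34 over arrays 1 and 3. MET17, a gene of sulphur amino acid synthesis, had -0.18 over arrays 2 and 4 and 2.98 over arrays 1 and 3. The sample labels give the strain name and the HOG1 deletion and no other marker. Whether this strain carries an intact MET17 was not checked, so its ratios are not read as a transcript change. With 2 values, KDX1 stayed below the minimum of 3 set for the test.

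**Figure D2:**
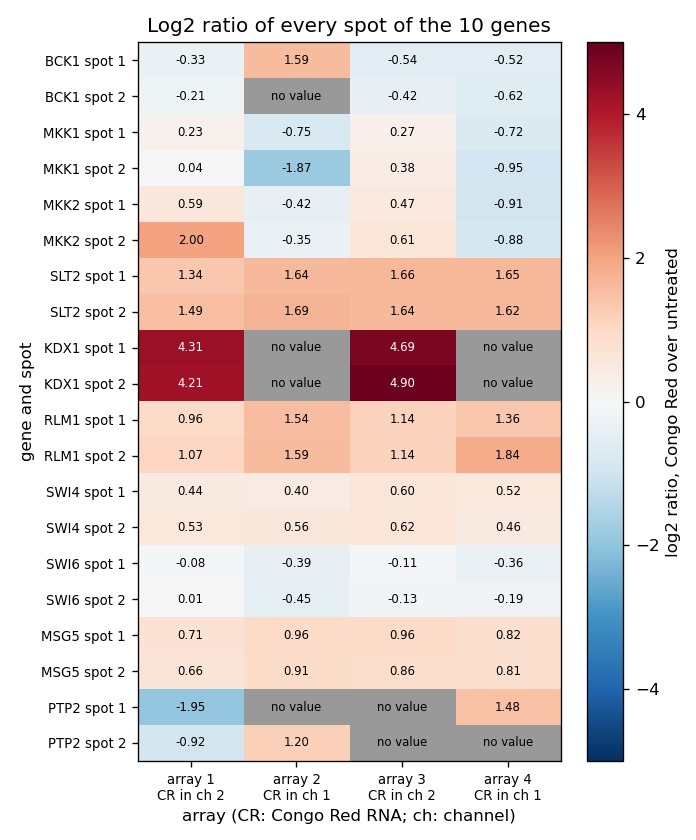
Log2 ratio (Congo Red over untreated, colour scale and printed number) of each of the 20 spots of the module genes (rows) on each array (columns), with grey cells for spots without a value. The 9 grey cells belong to KDX1, PTP2 and BCK1, and the spots of SLT2, RLM1, SWI4 and MSG5 are red in every column.

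Upstream of SLT2, no kinase gene passed the test, and their values spread widely. BCK1 (YJL095W), which encodes the first kinase of the cascade, had -0.27, 1.59, -0.48 and -0.57 on arrays 1 to 4. Array 2 stood alone above 0, and its value came from a single spot. That spot's ratio equalled the quotient of the whole numbers 3 and 1. The mean was 0.07 ± 1.02 (SD, n = 4; limma adjusted p = 0.945), and without array 2 it was -0.44 (adjusted p = 0.134). The 95% interval over all arrays ran from -0.96 to 1.09, so that a change of the size seen in RLM1 lay outside it and one of the size seen in MSG5 inside.

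MKK1 (YOR231W), one of the paired MAP kinase kinases, had 0.13, -1.31, 0.33 and -0.84 on arrays 1 to 4. MKK2 (YPL140C), its paralog, had 1.29, -0.38, 0.54 and -0.90. In both genes the values were above 0 on arrays 1 and 3 and below 0 on arrays 2 and 4. The means were -0.42 ± 0.78 for MKK1 (95% interval -1.22 to 0.38; limma adjusted p = 0.423) and 0.14 ± 0.97 for MKK2 (95% interval -0.84 to 1.12; adjusted p = 0.871). The channel order coefficient was 0.65 for MKK1, past the test (limma adjusted p = 0.0402), and 0.78 for MKK2, not past it (adjusted p = 0.0559). Over all tested genes 6.61% passed for this coefficient. With the channel order in the model, the treatment coefficient of MKK1 stayed at -0.42 with an adjusted p of 0.0507, and that of MKK2 at 0.14 with an adjusted p of 0.588.

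The spots of the MAP kinase kinase genes also disagreed on single arrays. For MKK1 on array 2 they gave -0.75 and -1.87, and for MKK2 on array 1 they gave 0.59 and 2.00. The MKK2 values are the logarithms of the quotients 3 to 2 and 4 to 1. On arrays 1 to 3, whose values have 4 decimals, 4 of 54 module values lay within 0.00011 of the logarithm of a quotient of unequal whole numbers up to 10, against 6.04% of all spot values on these arrays. The 4 belonged to MKK2 (3 values) and BCK1 (1 value). Signal intensities were not analysed here.

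Downstream of the kinase, the transcription factor genes differed. RLM1 (YPL089C), which encodes the factor that carries most of the Slt2 response, gave 1.02, 1.57, 1.14 and 1.60 on arrays 1 to 4. The values were high on every array, and higher on arrays 2 and 4 than on arrays 1 and 3. The mean was 1.33 ± 0.30 (SD, n = 4; 95% interval 0.95 to 1.71; limma adjusted p = 0.00504). Its channel order coefficient was -0.25 and did not pass (adjusted p = 0.204), and with that term the treatment had an adjusted p of 0.000625. A gap of this kind was common on the chip: in 55.8% of the genes with 4 values, arrays 1 and 3 did not overlap with arrays 2 and 4. An arbitrary split of 4 values into pairs also leaves many such gaps. The channel order coefficient itself passed in limma for 6.61% of tested genes.

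SWI4 (YER111C), which encodes the DNA-binding part of a factor for genes of the start of the cell cycle and of the wall, had 0.49, 0.48, 0.61 and 0.49. The 4 values lay close together at a small rise. The mean was 0.52 ± 0.06 (SD, n = 4; 95% interval 0.26 to 0.78; limma adjusted p = 0.0231). In the values as deposited, only 3 of the 328 genes with 4 values had a smaller SD, against a median SD of 0.28. Arrays were not centred for this ranking, and their median spot ratios were 0.01, -0.13, 0.22 and 0.07 on arrays 1 to 4. The call was lost when any single array was left out, with adjusted p between 0.0745 and 0.114 and means between 0.49 and 0.53. It was also lost when arrays were averaged in pairs as if they were technical swaps (limma adjusted p = 0.236). In that setting all genes share the same variance, so SWI4's own scatter between arrays played no part in this loss. The same holds for every call kept or lost with averaged pairs below.

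SWI6 (YLR182W), which encodes the partner of Swi4, had -0.04, -0.42, -0.12 and -0.28. All 4 values were slightly below 0. The mean was -0.21 ± 0.17 (SD, n = 4), with a 95% interval of -0.51 to 0.09, and it did not pass (limma adjusted p = 0.297). SWI4 was above SWI6 on every array, by 0.73 ± 0.16 on the log2 scale.

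The phosphatase genes of the feedback were read with very different quality. MSG5 (YNL053W), the gene of a dual-specificity phosphatase that acts on Slt2, had 0.69, 0.93, 0.91 and 0.82 on arrays 1 to 4. All values were of similar height, and the spots differed by a mean SD of 0.04. The mean was 0.84 ± 0.11 (SD, n = 4; 95% interval 0.56 to 1.11; limma adjusted p = 0.00734). Without array 3 the limma adjusted p was 0.0504, so the call was lost, at a mean of 0.81.

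PTP2 (YOR208W), the gene of a tyrosine phosphatase that acts on both Hog1 and Slt2, had 4 of 8 possible spot values. It had log2 ratios of -1.44, 1.20 and 1.48 on arrays 1, 2 and 4, and no value on array 3. The value was below 0 on array 1, the only measured array with the Congo Red RNA in channel 2, and above 0 on the others. With array 3 missing, channel order and array 1 itself cannot be told apart for this gene. The spots of array 1 lay apart, at -1.95 and -0.92, and the remaining values came from a single spot each. The mean was 0.41 ± 1.61 (SD, n = 3; 95% interval -1.39 to 2.22; limma adjusted p = 0.743). The channel order coefficient, which here sets array 1 against arrays 2 and 4, was -1.39 (limma adjusted p = 0.0127). Beside it the treatment coefficient was -0.05 (adjusted p = 0.860).

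**Figure D3:**
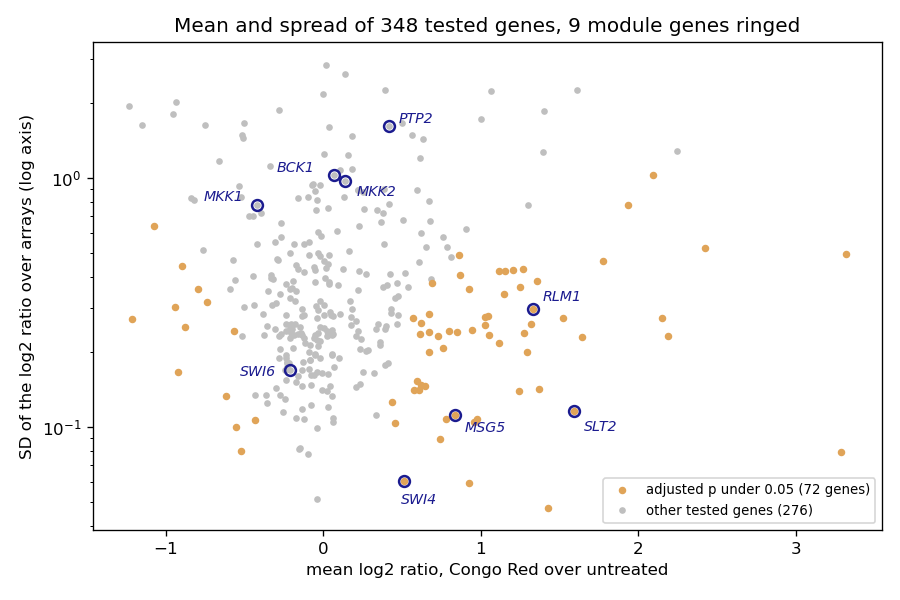
Mean log2 ratio (Congo Red over untreated, horizontal axis) against its SD over the arrays (vertical log axis) for the 348 tested genes, with genes past the test in orange, the others in grey and the 9 tested module genes ringed. SLT2, SWI4 and MSG5 combine a mean above 0 with an SD near the bottom of the range, RLM1 has an SD of 0.30 close to the median of 0.28, and MKK1, MKK2, BCK1 and PTP2 lie at an SD of 0.78 or more with means between -0.42 and 0.41.

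By mean ratio the order was KDX1, SLT2, RLM1, MSG5, SWI4, PTP2, MKK2, BCK1, SWI6 and MKK1. The mean of KDX1 rests on arrays 1 and 3 alone, and that of PTP2 on arrays 1, 2 and 4. Differences within arrays were compared for 8 pairs of members by an exact two-sided sign-flip permutation test, whose smallest possible p with 4 arrays is 1 in 8. MSG5 was below SLT2 by 0.73 to 0.82 on every array (mean -0.75 ± 0.04, SD, n = 4), a very even distance. RLM1 was also below SLT2 on all 4 arrays, by 0.04 to 0.51 (mean -0.26 ± 0.23). RLM1 was above SWI4 on all 4 (mean 0.82 ± 0.33). SLT2 was above BCK1 on all 4, by 0.08 to 2.21. Each pair with one sign on all 4 arrays, SWI4 and SWI6 included, reached the smallest p the test can give. MKK1 minus MKK2 had a mean of -0.56 ± 0.58 and went both ways (exact p = 0.250), as did MSG5 minus PTP2 over 3 arrays (mean 0.40 ± 1.51; exact p = 1). Adjusted over the 8 pairs, the smallest exact p was 0.200, and no pair could have passed at this number of arrays. Other pairs of neighbours in the order were not tested. From SWI4 downwards, neighbours in the order differed by less than the spread of one of them. So did SLT2 and RLM1, 0.26 apart against an SD of 0.30 for RLM1.

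Missing values fell on a few of the genes. Of the 80 spot values possible for the 10 genes, 71 were present. The 9 missing ones belonged to KDX1 and PTP2 with 4 each and to BCK1 with 1, and none was on array 1. Of all named spots on the chip 3.87% of values were missing, against 11.2% here. SLT2, RLM1, SWI4, SWI6, MSG5, MKK1 and MKK2 had all 8 values.

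The genes whose ratios ran closest to those of each member were sought over the 327 or 328 other genes with 4 values, by the root mean square difference of log2 ratios over the arrays. SLT2 lay nearest to PST1, a GPI-anchored wall protein gene, at a difference of 0.14, then to CHA1, a deaminase gene, at 0.18 and the wall protein gene SED1 at 0.20. RLM1 lay nearest to CRH1, the gene of a chitin transglycosylase, at 0.10, the wall protein gene PIR3 at 0.10 and NFG1 at 0.14. MSG5 lay nearest to ANS1 at 0.11, SPI1, a wall protein gene, at 0.13 and FLC1, a flavin carrier family gene, at 0.14. SWI4 lay nearest to ECM18 at 0.11, YCL049C and AFB1, both at 0.14. All 12 of these genes were higher with an adjusted p under 0.05 in limma, which their choice by likeness to genes called higher largely fixes. Leaving out an array ended the call for ECM18 and YCL049C in each case, for AFB1 without array 1, 3 or 4, and for ANS1 and FLC1 without array 3. With averaged pairs ECM18, YCL049C, AFB1 and FLC1 were not called (limma adjusted p = 0.330, 0.365, 0.133 and 0.056). ECM18 also lost its call with centring (0.0585) and with either spot alone, and YCL049C with its first spot (0.0575). For SLT2 the median distance to all genes was 1.64, for RLM1 1.42, for MSG5 0.94 and for SWI4 0.69. KDX1 had no close neighbour over its 2 arrays, where CRG1 came first at 1.23.

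Of the genes within 2 places of a member on its chromosome, 3 were on the chip, looked up after the values were seen. Beside RLM1 lies YPL088W, which had a value of 4.15 on array 1 and none on the other arrays. It was the highest gene after KDX1 there. PIR3 lies next but one to KDX1, and had 0.88, 1.61, 1.22 and 1.73 on arrays 1 to 4. On the other side, also next but one, RCN1, a regulator of calcineurin, had a mean of -0.05 ± 0.23.

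The wider pathway was read through lists written from general knowledge. In the list of sensors and the Rho1 module, 0 of 12 tested genes were higher and 2 lower in limma (1 higher and 2 lower at an unadjusted p under 0.05), with a median log2 ratio of -0.05, against 0.02 for all tested genes. Of all 348 tested genes 59 were higher and 13 lower (86 and 27 at that unadjusted p). The 2 lower sensor genes were WSC4 (YHL028W), of the Wsc sensor family, at -0.75, -1.24, -0.67 and -0.85 on arrays 1 to 4, and MID2 (YLR332W), the gene of a main sensor, at -0.59, -0.43, -0.39 and -0.34. Both were below 0 on every array, with means of -0.88 ± 0.25 (limma adjusted p = 0.0128) and -0.44 ± 0.11 (adjusted p = 0.0463). The call of MID2 was lost whichever array was left out, with averaged pairs (limma adjusted p = 0.365) and with its first spot alone (0.0514), and that of WSC4 without array 1, 3 or 4. RHO1 had 0.36 ± 0.22 and PKC1, the protein kinase C gene, -0.24 ± 0.38, and neither passed (limma adjusted p = 0.121 and 0.414).

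Of 4 further phosphatase genes linked to the pathway, PTP3, PPZ1, PPZ2 and SIT4, 0 passed in limma, adjusted or at an unadjusted p under 0.05. Their means lay between -0.26 and 0.01, all below that of MSG5.

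Genes known as targets of Rlm1 were mostly higher. Apart from the module's own SLT2 and RLM1, 19 of 27 tested targets were higher and 0 lower in limma, with a median log2 ratio of 1.11 (24 and 0 at an unadjusted p under 0.05). KDX1 is also on this list but had too few values for the test. Over all 348 tested genes 59 were higher and 13 lower, and 86 and 27 at an unadjusted p under 0.05. The highest tested targets were the wall mannoprotein gene CWP1 (3.32 ± 0.49), CRG1 (3.29 ± 0.08) and the yapsin protease gene YPS3 (2.43 ± 0.52). PRM5 (2.19 ± 0.23), KTR2 (2.15 ± 0.27) and FLC2 (2.09 ± 1.03) followed. The call of FLC2 was lost without array 1, 2 or 3, and with its first spot alone (limma adjusted p = 0.0799). The means of SLT2 and RLM1 lay inside the range of these targets, which ran from 0.01 to 3.32. This list was drawn up with the response of many of its genes in these data known, so its direction is no independent evidence.

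Targets of Swi4 and Swi6 were partly higher. Of 13 tested genes 5 were higher and 0 lower in limma, with a median of 0.33 (6 and 0 at an unadjusted p under 0.05). The chip as a whole had 17.0% higher, or 86 of 348 genes at that unadjusted p. The 5 target genes were GSC2 (1.78 ± 0.46) and FKS1 (1.03 ± 0.28), glucan synthase genes, CRH1 (1.32 ± 0.26), SVS1 (0.96 ± 0.10) and EXG1 (0.61 ± 0.24), a glucanase gene. The call of EXG1 was lost without array 1, 3 or 4, and with averaged pairs (limma adjusted p = 0.137). All but EXG1 also stand on the Rlm1 list. PCL1, a G1 cyclin gene that is a textbook Swi4 target, had 0.22, -0.50, 0.45 and 0.33 on arrays 1 to 4. Its values lay on both sides of 0, and it did not pass (mean 0.13 ± 0.43; limma adjusted p = 0.728).

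The other MAP kinase modules had 1 of 16 tested genes higher and 0 lower in limma, with a median of -0.02 (2 and 0 at an unadjusted p under 0.05), where 59 and 13 of all 348 genes were called (86 and 27 unadjusted). The 16 include HOG1, which was deleted in both RNAs. The 1 higher kinase module gene was SSK22 (YCR073C), a kinase gene of the high osmolarity route, at 1.16, 1.16, 1.21 and 1.45 on arrays 1 to 4 (mean 1.24 ± 0.14; limma adjusted p = 0.00333). KSS1, the gene of the filamentation MAP kinase, had 0.27 ± 0.41 and SMK1, that of the sporulation MAP kinase, -0.05 ± 0.20, and neither passed (limma adjusted p = 0.383 and 0.855). Among 6 other transcription factor genes 0 passed in limma, adjusted or at an unadjusted p under 0.05, with means from -0.33 for CRZ1 to 0.01 for STE12. Whether the ratio of SLT2 or RLM1 differed from those of the other kinase or factor genes was not tested.

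**Figure D4:**
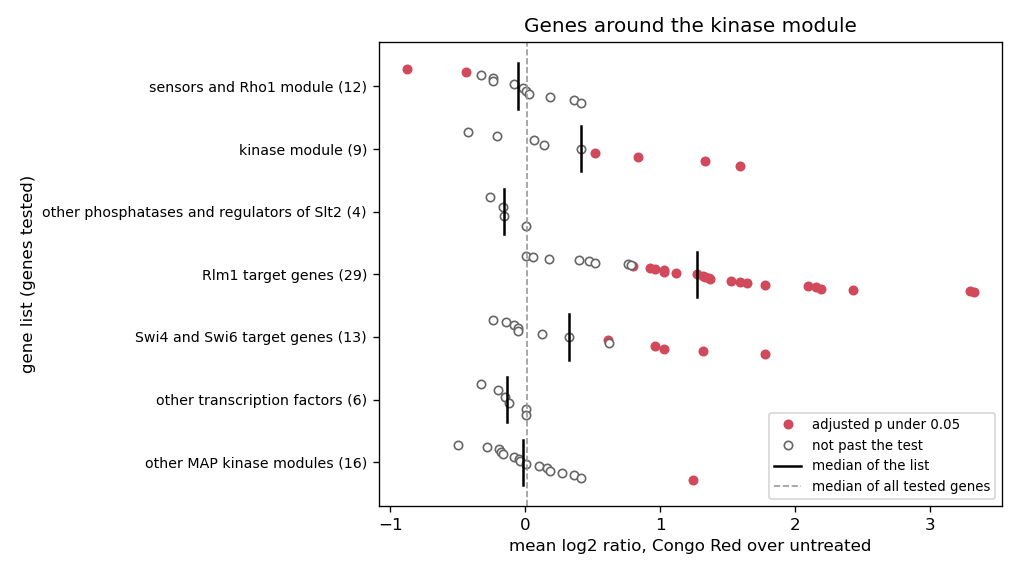
Mean log2 ratio (Congo Red over untreated, horizontal axis) of every tested gene in 7 lists around the module (rows, with the number of genes tested), filled where the gene passed the test, with the median of each list as a black bar and that of all tested genes as a dashed line. The Rlm1 targets lie furthest to the right, with a median of 1.27 when SLT2 and RLM1 are counted, and the sensors and Rho1 module hold the 2 genes that were lower.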

How the data were processed

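Total RNA of Congo Red-treated and untreated hog1 cells was compared on 4 two-channel arrays, numbered as in their titles. The deposited values are log2 ratios per spot. Their base was inferred from the table: on arrays 1 to 3, 58, 57 and 36 values equal the base-2 logarithm of a small whole-number quotient, against at most 9 for other bases. The sources used here name no scanner, background correction, normalization or numerator. Of 896 spots, 724 name 1 gene, 10 several and 162 none in the platform annotation. All 353 genes matched the R64 gene table, used for names and gene order. Spots of a gene were averaged per array. The 348 genes with values on at least 3 arrays were tested against 0 with limma 3.58.1 (R 4.3.3), and p-values were adjusted over all of them by Benjamini-Hochberg. A second model added a channel order term. The fit was tested on simulated data.

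The members and lists were chosen with earlier results of these data known. Named genes were the members, the genes of each list past the test (at most 6 by size), the 3 genes nearest to KDX1, SLT2, RLM1, SWI4 and MSG5, HOG1 and ACT1. RHO1, PKC1, PCL1, KSS1, SMK1, CRZ1, STE12, PTP3, PPZ1, PPZ2, SIT4 and the chromosomal neighbours were named after their values were seen. Alternatives were centring, scaling, turning of arrays, channel order, averaged pairs, limits on missing values, single spots, array weights, robust variance and each array left out.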

Additional observations from a re-analysis of the deposited data

Results flagged for a closer look

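In 3 of the 36 genes with 4 values that were named by rule, 1 array lay apart from the rest. Chance alone marks about 1 in 20 such groups. Genes named only after their values were seen were not put to this check. All 3 are among the 8 module genes with 4 values. The share that the same rule marks over all 328 genes with 4 values was not computed, so this is not read as a trait of the module. SLT2 had its lowest log2 ratio, 1.42, on array 1, with the others between 1.64 and 1.66. SWI4 had its highest, 0.61, on array 3, with the others between 0.48 and 0.49. In both genes the distance is small, and it stands out because the other 3 arrays lie so close together. These are values as deposited, without centring. Array 3 had the highest median spot ratio, 0.22, against 0.01, -0.13 and 0.07 on arrays 1, 2 and 4. Whether the gaps stay once arrays are centred was not tested. BCK1 had its highest, 1.59, on array 2, the single spot at a quotient of 3 to 1, with the others between -0.57 and -0.27.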

How the results depend on the processing

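SLT2, RLM1 and MSG5 kept their rise and their call under centring, scaling, a channel order term, averaged pairs, genes with 4 values only, either spot alone, array weights and robust variance, and SWI4 under all of these but averaged pairs. Without 1 array, 2 to 3 module genes passed, SLT2 and RLM1 each time, and 28 to 55 of all genes (37 without array 1, 28 without array 3, 40 without array 4). MSG5 failed without array 3 and SWI4 without any one of the 4. With a channel order term 121 genes passed, against 72 without. In averaged pairs KDX1 was called in place of SWI4 (log2 4.53), but there all genes share one variance. Turning arrays 2 and 4 left 0 genes past the test in limma, module genes included (33 at an unadjusted p under 0.05, of which 3 were module genes). The log2 ratios then were -0.058 for SLT2, -0.25 for RLM1, -0.038 for MSG5, 0.14 for SWI6, 0.65 for MKK1, -0.44 for BCK1 and -1.37 for PTP2. Others whose sign turned there were SSK22 (-0.062), CWP1 (-0.39), YPS3 (-0.43), PRM5 (-0.10), WSC4 (0.17), GSC2 (-0.31), CRH1 (-0.19), FKS1 (-0.18), ACT1 (-0.084), PST1 (-0.095), CHA1 (-0.0022), SED1 (-0.23), PIR3 (-0.31), NFG1 (-0.28), ECM18 (-0.020), YCL049C (-0.067) and FLC1 (-0.019). Among genes never called, BCK1 turned to -0.0061 with scaling, -0.42 with its last spot, -0.026 with array weights and -0.44 without array 2 (-0.44 to 0.28 over single arrays left out). PTP2 turned to -0.048 with a channel order term and -0.12 without array 4 (-0.12 to 1.34). MKK2 turned to -0.066 with its first spot and -0.24 without array 1 (-0.24 to 0.49), and HOG1 to -0.24 and -0.18 without array 1 or 4 (-0.24 to 0.82). Their causes were not tested. Depth, as signal over background, was not analysed here.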
